A study of Mus musculus with 16 samples.

Results

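Dietary starch and sugar are digested and absorbed by a short chain of proteins in the small intestinal epithelium, and 9 genes of that chain, out of 55359 genes in the count table, were followed here. They were taken by name, with earlier results of these data known. Sis, Mgam, Treh and Lct encode the brush border disaccharidases; Slc5a1, Slc2a2 and Slc2a5 encode the hexose transporters SGLT1, GLUT2 and GLUT5; Khk encodes ketohexokinase, which phosphorylates fructose; and Mlxipl encodes ChREBP, a glucose- and fructose-responsive transcription factor. RNA was sequenced from the ileum and the duodenum of 4 adult male Neurog3f/f; Villin-CreERT2 mice (NFVCT27, NFVCT38, NFVCT153 and NFVCT190, called mutants below) and of 4 adult male Neurog3f/f mice (NF17, NF29, NF32 and NF152, the controls). All 8 animals had the C57BL/6N background, carried the floxed Neurog3 alleles, ate standard chow and were sampled, per the labels, 18 weeks after tamoxifen. Each animal gave 1 library per tissue, 16 in all, so that each group had 4 animals.

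Neurog3 encodes the transcription factor that starts enteroendocrine differentiation, and the Villin promoter drives the tamoxifen-inducible CreERT2 across the intestinal epithelium, so the deletion is not restricted to the enteroendocrine lineage. Controls lacked the CreERT2 transgene, and the labels do not say separately whether they received tamoxifen or which layers of the gut wall were extracted. Neurog3 had 0 counts in all 8 mutant libraries, against 8 to 27 counts in control ileum and 12 to 37 counts in control duodenum. The summed level of 12 enteroendocrine genes was 6.99 to 12.3 CPM (read counts scaled to library size) in mutant ileum and 277 to 414 CPM in control ileum, and 8.06 to 22.6 CPM in mutant duodenum and 373 to 577 CPM in control duodenum. Library totals ranged from 8213889 to 35076714 counts. The tissue labels matched the summed levels of their marker lists. The summed level of 14 distal genes, such as the bile acid binding protein gene Fabp6, was 5089 to 9107 CPM over the ileal libraries and 622 to 1612 CPM over the duodenal ones. The summed level of 12 proximal genes ran the other way, at 367 to 905 CPM in ileal libraries and 2360 to 5527 CPM in duodenal ones. Not every gene of that list did. Of 11 proximal genes tested, 1 had a log2 fold change of ileum over duodenum above 0 in each genotype. In mutants that gene was Osr2 (8.90). Pancreatic acinar transcripts made up 2.30% to 21.6% of counts in mutant duodenum and 7.84% to 17.2% in control duodenum, against 0.322% to 1.26% in the ileal libraries. Of 19 acinar list genes tested in mutants, 18 were lower in the ileum at an adjusted p under 0.05 (edgeR). The exception, Zg16, was near equal between tissues (log2 fold change -0.14, adjusted p = 0.731, edgeR), so the ileal share may not be acinar alone.

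Sucrase-isomaltase (Sis) and maltase-glucoamylase (Mgam) release glucose and fructose from sucrose and from the breakdown products of starch, trehalase (Treh) splits trehalose, and lactase (Lct) splits milk sugar and declines after weaning. SGLT1 carries glucose and galactose into the enterocyte with sodium, GLUT5 carries fructose, and GLUT2 passes hexoses on to the blood. In mice the expression of this set is known to be higher in the proximal small intestine than in the ileum and to follow the sugar that reaches the epithelium, with ChREBP as one of the factors that act on Khk, Slc2a5 and Sis.

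The bases just before the start of 6 of these genes are shown because they carry short sequence motifs of intestinal and sugar-responsive factors. All 9 genes matched RefSeq promoters of build GRCm38.p6, with 10 starts in all, since Mlxipl has a pair of starts. The counts were made on another build, so these coordinates serve the sequences only. Motifs of 4 kinds were searched on both strands in the 250 bases before each start: GTTAAT, a half-site bound by HNF1; CATAAA, bound by CDX; AGATAA, bound by GATA; and CACGTG, the E-box core found in the carbohydrate response elements of ChREBP. No matches of different motifs overlapped. Each sequence below is the last 170 bases before the start, 5′ to 3′ on the gene's strand, with motif letters in capitals.
Sis: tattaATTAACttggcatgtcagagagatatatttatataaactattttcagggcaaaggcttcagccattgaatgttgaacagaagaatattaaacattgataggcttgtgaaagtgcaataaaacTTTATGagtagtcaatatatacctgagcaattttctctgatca
Lct: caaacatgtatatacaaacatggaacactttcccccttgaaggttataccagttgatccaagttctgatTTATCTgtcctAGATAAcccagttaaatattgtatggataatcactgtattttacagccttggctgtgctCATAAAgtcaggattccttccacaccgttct
Mgam: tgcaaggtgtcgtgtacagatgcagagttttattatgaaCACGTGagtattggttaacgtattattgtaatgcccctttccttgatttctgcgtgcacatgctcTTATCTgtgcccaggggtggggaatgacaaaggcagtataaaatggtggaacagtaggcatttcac
Slc5a1: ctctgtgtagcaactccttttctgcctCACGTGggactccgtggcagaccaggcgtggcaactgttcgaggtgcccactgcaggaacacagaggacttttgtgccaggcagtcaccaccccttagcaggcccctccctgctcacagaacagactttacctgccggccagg
Khk: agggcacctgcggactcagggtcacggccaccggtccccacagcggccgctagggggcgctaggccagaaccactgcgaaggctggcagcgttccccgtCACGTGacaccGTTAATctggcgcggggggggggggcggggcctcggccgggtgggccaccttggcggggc
Mlxipl: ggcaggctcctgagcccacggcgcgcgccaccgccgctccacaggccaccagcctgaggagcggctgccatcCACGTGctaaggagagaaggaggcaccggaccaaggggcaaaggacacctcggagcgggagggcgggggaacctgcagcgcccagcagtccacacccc
The sequences lie at chr3:72967864-72968033 (minus strand) for Sis, chr1:128328319-128328488 (minus strand) for Lct, chr6:40628661-40628830 (plus strand) for Mgam, chr5:33104049-33104218 (plus strand) for Slc5a1, chr5:30921389-30921558 (plus strand) for Khk and chr5:135089720-135089889 (plus strand) for the upstream start of Mlxipl.

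The E-box core stood before 4 of the 9 genes, namely Mgam (131 bases before the start), Slc5a1 (143 bases), Khk (71 bases) and Mlxipl (98 bases), and in 6.02% of all 32851 mouse promoters in the same window. CATAAA stood before Sis, on the opposite strand 43 bases before the start, and before Lct, 31 bases before it, and in 10.8% of all promoters. The HNF1 half-site was found before Sis and Khk and in 6.43% of all promoters. AGATAA occurred 2 times before Lct and 2 times before Mgam, 1 of those upstream of the bases printed, and in 9.99% of all promoters. Treh, Slc2a2, Slc2a5 and the downstream start of Mlxipl held none of these letters in the window. A match is a description of the letters and does not show binding.

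In the ileum, 7 of the 9 genes rose in mutants, between 1.48-fold and 3.79-fold. Sis rose most, followed by Slc2a2, and Mgam, Slc5a1, Slc2a5 and Mlxipl each came to about a doubling. Khk rose least of the 7, and Treh and Lct did not pass the test. In all 7 the 4 mutant libraries lay above the 4 controls, whereas for Treh and Lct the groups overlapped. This separation describes the values that the test used, and its share over all genes was not counted. Over all 14951 genes tested in the ileum, 1.77% were called higher and 1.51% lower at a Benjamini-Hochberg adjusted p under 0.05 in edgeR's quasi-likelihood test. The median log2 fold change was 1.03 over the 9 genes and -0.0061 over all genes tested.

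Among the disaccharidases, Sis had 16694, 20566, 17746 and 21225 CPM in ileum of NFVCT27, NFVCT38, NFVCT153 and NFVCT190, against 5531, 3666, 4843 and 5992 CPM in ileum of NF17, NF29, NF32 and NF152. The lowest mutant was thus far above the highest control. Its log2 fold change was 1.92 (SE 0.16, 95% interval 1.58 to 2.27, adjusted p = 1.2e-05, edgeR). Sis alone took 1.75% to 2.17% of all counts in mutant ileum, against 0.414% to 0.684% in control ileum. Mgam had 8728, 12112, 11121 and 11874 CPM in the same 4 mutants and 5791, 4667, 5872 and 4723 CPM in the same 4 controls. The groups did not overlap, and NFVCT27 was the lowest mutant for both Sis and Mgam. The log2 fold change of Mgam was 1.05 (SE 0.14, adjusted p = 0.00105, edgeR).

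Treh had 64.6, 130, 93.6 and 87.7 CPM in mutant ileum, against 141, 76.0, 96.3 and 104 CPM in control ileum. Mutants and controls were interleaved, with a log2 fold change of -0.16 and a 95% interval of -0.68 to 0.36 (adjusted p = 0.824, edgeR). Lct had 189, 518, 425 and 314 CPM in mutant ileum, against 651, 282, 630 and 526 CPM in control ileum. All but 1 control lay above every mutant, and NF29 was the exception. The log2 fold change of Lct was -0.54 with a wide 95% interval of -1.43 to 0.36 (adjusted p = 0.582, edgeR).

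The sodium-coupled transporter gene Slc5a1 had 3879, 4575, 3777 and 4355 CPM in mutant ileum, against 2301, 1850, 2167 and 2187 CPM in control ileum. Both groups were tight and far apart, with a log2 fold change of 0.96 and an SE of 0.12 (adjusted p = 0.000416, edgeR). Slc2a2 had 377, 616, 578 and 485 CPM in mutant ileum, against 245, 119, 233 and 206 CPM in control ileum. Its spread was larger, and NF29 was the lowest control. The log2 fold change of Slc2a2 was 1.35 (SE 0.23, adjusted p = 0.0133, edgeR), and the call was lost without NF152 (adjusted p = 0.058, edgeR) or without NFVCT153 (adjusted p = 0.0553, edgeR). The fructose transporter gene Slc2a5 had 102, 109, 91.7 and 118 CPM in mutant ileum, against 62.6, 35.1, 51.6 and 55.7 CPM in control ileum. No library crossed over, and the log2 fold change was 1.03, with an SE of 0.14 (adjusted p = 0.00145, edgeR).

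Khk, whose product commits fructose to metabolism, had 117, 147, 103 and 132 CPM in mutant ileum, against 99.98, 67.3, 82.4 and 85.4 CPM in control ileum. NFVCT153 and NF17 came within a few CPM of each other without crossing. The log2 fold change was 0.57, with an SE of 0.13 (adjusted p = 0.0259, edgeR). This call was lost in 5 of the 8 fits that left out 1 library (without NF29, NF32, NF152, NFVCT38 or NFVCT190), with an adjusted p of up to 0.102 (edgeR), while the log2 fold change stayed between 0.48 and 0.65. Mlxipl had 44.1, 38.8, 57.8 and 39.9 CPM in mutant ileum, against 25.6, 18.2, 24.4 and 19.7 CPM in control ileum. The groups were separate, with a log2 fold change of 1.03 and an SE of 0.16 (adjusted p = 0.00227, edgeR). Reads were counted per gene, so the pair of Mlxipl starts was not separated.

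**Figure D1:**
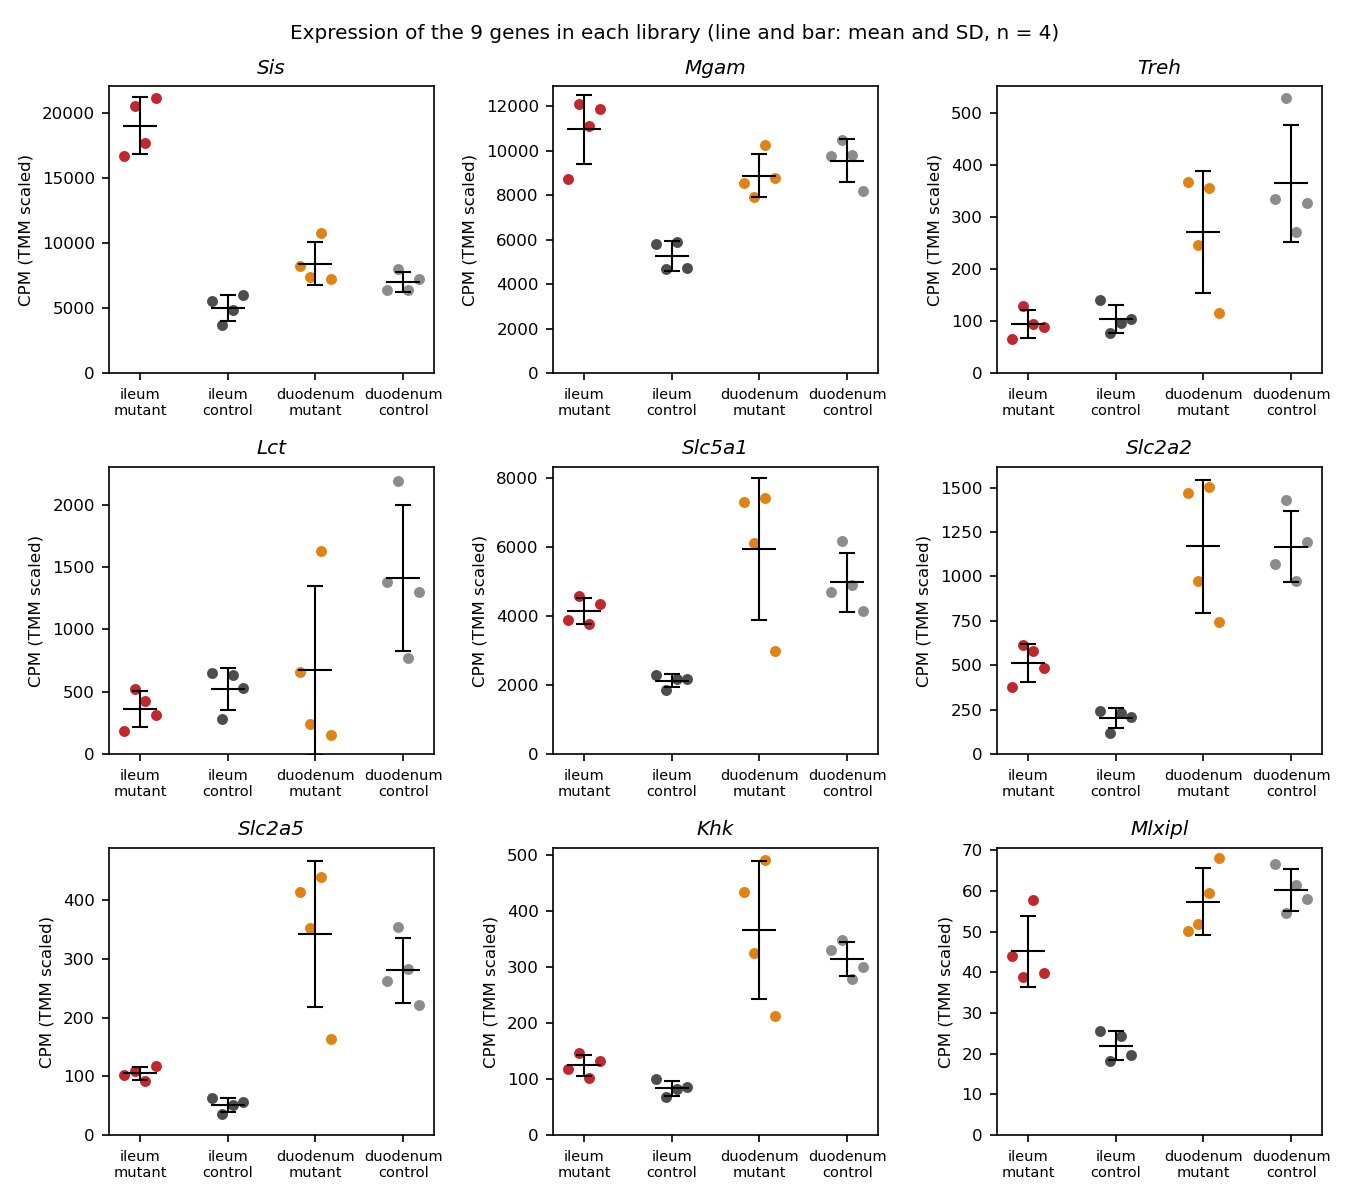
CPM of each of the 9 genes (vertical axes, linear, from 0) in each library, by tissue and genotype; points are libraries, and the line and bar are the mean and SD of 4. The 4 ileal mutants lie above the 4 ileal controls for every gene but Treh and Lct, and duodenal mutants and controls overlap for all 9.

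Other tissue components moved with these genes in the ileum, and in bulk tissue a change in the number of cells cannot be told apart from a change in RNA per cell. Of 15 smooth muscle markers, 7 rose in mutant ileum and all 15 had a log2 fold change above 0. Their summed level was 7286 to 9705 CPM in mutant ileum and 4705 to 6588 CPM in control ileum, with none at 0. With the smooth muscle score as a covariate, Sis was the single gene of the 9 still called (log2 fold change 1.91, adjusted p = 0.0169, edgeR), and Slc5a1 and Slc2a5 had similar values (0.90 and 0.96) without passing the test. In that fit Mgam was at 0.73, Slc2a2 at 0.64, Khk at 0.49 and Mlxipl at 0.44. Since the scores of the genotypes did not overlap, the score and the genotype cannot be told apart in full. In the duodenum, 0 of 14 smooth muscle markers tested were called. All 14 had a log2 fold change above 0 there, with a median of 0.37. The 15 markers summed to 2134 to 5012 CPM in mutant duodenum and 1886 to 3861 CPM in control duodenum, with overlap.

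The general epithelial markers were close between genotypes. Their summed level was 16276 to 18788 CPM in mutant ileum and 14904 to 17731 CPM in control ileum, and 2 of 24 rose, the tight junction gene Cldn15 (log2 fold change 0.63) and the keratin gene Krt18 (0.57). Scaling the libraries to these epithelial counts left 6 of the 9 genes called, without Khk, whose log2 fold change was then 0.52 (adjusted p = 0.0845, edgeR). Of 12 villus tip markers, 2 rose, Creb3l3 (0.82) and the nucleoside transporter gene Slc28a2 (0.58). In this list 11 of 12 had a log2 fold change above 0, with a median of 0.49. The 12 markers summed to 1813 to 2584 CPM in mutant ileum and 1364 to 1732 CPM in control ileum. Of 14 crypt and proliferation markers, 1 fell, the stem cell gene Olfm4 (-1.25), with sums of 1163 to 1377 CPM in mutants and 1590 to 1943 CPM in controls. Only 1 of these 14 had a log2 fold change above 0, and their median was -0.16. Of 12 lymphocyte markers tested, 4 fell, among them the T cell genes Lck (-1.24) and Cd3e (-1.90). All 13 markers of that list summed to 99.3 to 202 CPM in mutants and 221 to 333 CPM in controls. The lymphocyte fall was not particular to the ileum. In the duodenum the sums were 110 to 196 CPM in mutants and 322 to 395 CPM in controls, and Lck (-1.36) and Cd3e (-1.80) fell. None of the villus tip markers was at 0 in any ileal library. The part of the villus tip, crypt and lymphocyte levels in the rise of the 7 genes was not tested.

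Other brush border genes had lower or similar values. Over all 14951 genes tested in the ileum, 2356 had an unadjusted p under 0.05 (edgeR) and 48.9% had a log2 fold change above 0. Of 28 other brush border enzyme and structure genes tested there, 9 had an unadjusted p under 0.05 and 6 lay above 0. In edgeR's test 0 of the 28 were called higher and 5 fell. Those that fell were all peptidase genes, among them Anpep (-0.80, adjusted p = 0.0133, edgeR), which encodes aminopeptidase N, Naaladl1 (-0.63), Mep1b (-0.59) and Xpnpep2 (-0.54). Anpep had 2351 ± 455 CPM in mutant ileum and 4078 ± 627 CPM in control ileum (SD, n = 4 each). The median log2 fold change of these 28 genes was -0.18.

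Over 8 lists of other sugar-handling genes, 16 of 78 tested genes rose in mutant ileum and 0 fell. In the fructose and sorbitol list, 3 of 11 rose, among them the triokinase gene Tkfc (0.68) and the gluconeogenic gene Fbp1 (1.63), while Fbp2 had a log2 fold change of 0.44 (adjusted p = 0.0935, edgeR). In the list of ChREBP partners and known targets without the 9 genes, 8 of 20 rose and 18 of 20 lay above 0, with a median of 0.71. Among its leading genes were the circadian repressor gene Bhlhe40 (1.05), the malic enzyme gene Me1 (2.24) and Klf10 (0.71), followed by the pyruvate kinase gene Pklr (0.73). Txnip, a classical glucose-induced target named here after its value was seen, averaged 617 ± 71 CPM in mutants and 588 ± 145 CPM in controls (SD, n = 4 each; adjusted p = 0.914, edgeR).

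Sodium that enters with glucose is pumped out by the Na,K-ATPase. Of 10 genes tested in the sodium gradient list, 2 rose, among them the pump subunit gene Atp1b1 (0.52). The sodium-hydrogen exchanger gene Slc9a3 had a log2 fold change of 1.65 but missed the threshold (adjusted p = 0.0521, edgeR). Among other hexose transporter genes, 1 of 10 SLC2 genes rose (Slc2a4, 0.64), with Slc2a8 (0.54) and Slc2a1 (0.52) short of the threshold, and 1 of 7 SLC5 and SWEET genes rose (Slc5a9, 0.70). Slc5a4a and Slc5a4b, close relatives of Slc5a1, had log2 fold changes of -0.86 and -1.09 that did not pass (adjusted p = 0.302 and 0.332, edgeR). Pgm1 was the single galactose gene of 8 to rise (0.48). Slc37a4, the glucose-6-phosphate transporter gene, was the single gene of 6 to rise in the hexose phosphorylation list (0.83), beside G6pc at 1.28 (adjusted p = 0.134, edgeR). Of 8 other glycosidase and glycogen-breakdown genes, 0 passed edgeR's test and 2 had an unadjusted p under 0.05, with Pygl at 0.62 (adjusted p = 0.106) and Pygb at 0.33 (adjusted p = 0.115). Of 18 enterocyte transcription factor genes, 1 rose, Creb3l3, and Ppargc1a had a log2 fold change of 0.56 (adjusted p = 0.179, edgeR).

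**Figure D2:**
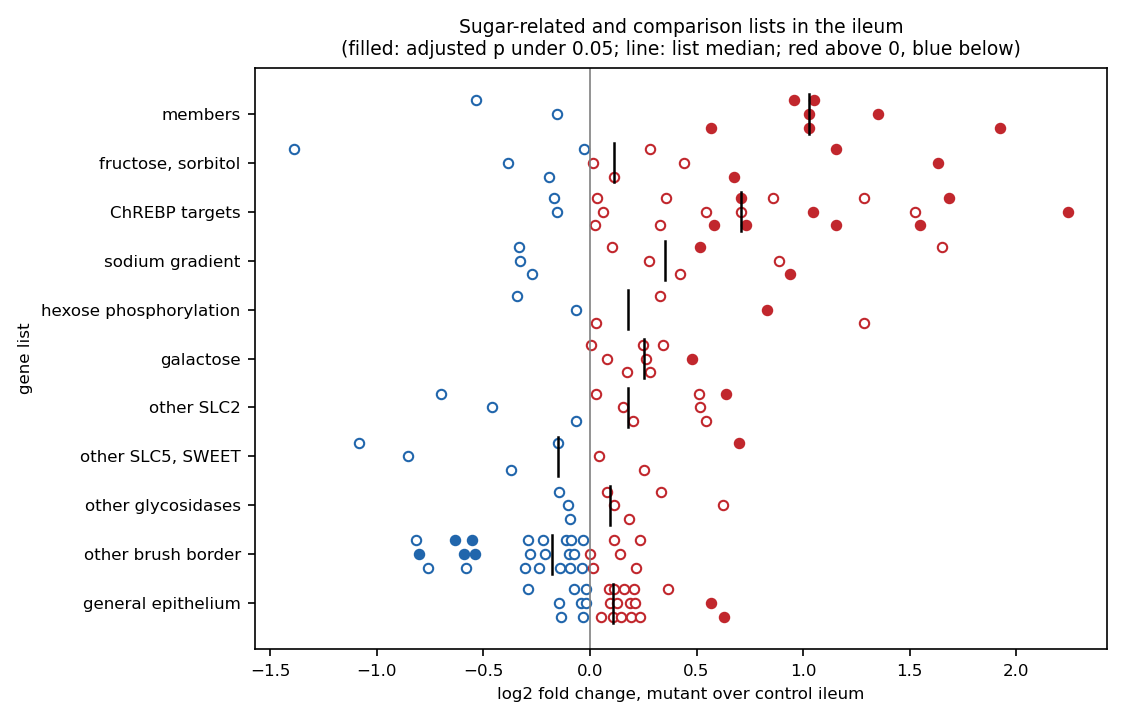
Log2 fold change of mutant over control ileum (horizontal axis) for the 9 genes (top line, members) and for genes of other lists; filled points passed the test, and the black line is the list median. The medians lie at 1.03 for the 9 genes, 0.71 for the ChREBP list and -0.18 for other brush border genes.

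In the duodenum, 0 of the 9 genes passed edgeR's test. Mutant and control libraries overlapped in every one of the 9, and the share of such overlap over all genes was not counted. None had an unadjusted p under 0.05 (the smallest was 0.162 in the same test), and DESeq2's Wald test and limma-voom also called 0 of the 9. Over all 14703 genes tested, 58 were called, or 0.394%, and 1280 had an unadjusted p under 0.05. The median log2 fold change was -0.016 over the 9 genes and -0.00015 over all genes tested.

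Sis had 8241, 7385, 10799.9 and 7257 CPM in duodenum of NFVCT27, NFVCT38, NFVCT153 and NFVCT190, against 6375, 8047, 6418 and 7223 CPM in duodenum of NF17, NF29, NF32 and NF152. NF29 lay above all mutants but NFVCT27 and NFVCT153, and the log2 fold change was 0.25 (95% interval -0.35 to 0.84). Mgam ranged from 7915 to 10248 CPM in mutant duodenum and from 8164 to 10467 CPM in control duodenum, with a log2 fold change of -0.12 (95% interval -0.71 to 0.47). Treh ranged from 116 to 367 CPM in mutants and from 270 to 528 CPM in controls, and its log2 fold change was -0.45 (95% interval -1.20 to 0.31).

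Lct varied most of the 9 genes in the duodenum, with 660, 239, 1633 and 154 CPM in mutants, against 1383, 2193, 771 and 1302 CPM in controls. All mutants but NFVCT153 lay below the lowest control. The log2 fold change was -1.11, with a 95% interval of -2.78 to 0.56 (adjusted p = 0.782, edgeR), so neither a fall of several fold nor a small rise was excluded at this spread. Without NFVCT153 the value was -2.0036 (adjusted p = 0.243, edgeR), and the fits that left out another single library gave -1.31 to -0.79.

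Slc5a1 had 7288, 6107, 7406 and 2977 CPM in mutant duodenum, against 4691, 6162, 4905 and 4151 CPM in control duodenum. NFVCT190 was lowest by a wide margin, and the other mutants lay near or above the highest control. The same library held the lowest duodenal mutant value for 7 of the 9 genes, including Slc2a5 (163 CPM, against 353 to 440 CPM in the other mutants and 221 to 355 CPM in controls) and Khk (213 CPM, against 326 to 492 CPM in the other mutants and 280 to 349 CPM in controls). Its acinar share was the highest of all libraries (21.6%), and its 12 villus tip markers summed to 1424 CPM, against 4419 to 7846 CPM in the other duodenal mutants and 5031 to 15158 CPM in duodenal controls. The part of these levels in the values of NFVCT190 was not tested. Without NFVCT190, 0 of the 9 genes passed, and the log2 fold changes were 0.44 for Slc5a1 (0.24 with all libraries), 0.48 for Slc2a5 (0.27) and 0.37 for Khk (0.20).

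Slc2a2 ranged from 741 to 1501 CPM in mutant duodenum and from 972 to 1432 CPM in control duodenum, and its log2 fold change was -0.02 (95% interval -0.56 to 0.53). Mlxipl had the narrowest interval of the 9, with 50.03 to 68.0 CPM in mutants and 54.5 to 66.7 CPM in controls and a log2 fold change of -0.08 (95% interval -0.36 to 0.20). A doubling of Mlxipl as seen in the ileum lies outside that interval. Of the 75 tested genes in the 8 other sugar-handling lists, 0 passed in the duodenum and 13 had an unadjusted p under 0.05 in edgeR's test. The ChREBP list had a median log2 fold change of 0.22, with Fasn at 0.66 (adjusted p = 0.222), Acaca at 0.49 (adjusted p = 0.331) and Tkt at 0.52 (adjusted p = 0.370, all edgeR). In the other lists, Slc2a1 stood at 0.50 (adjusted p = 0.143) and Slc5a4b at -1.37 (adjusted p = 0.502, both edgeR).

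**Figure D3:**
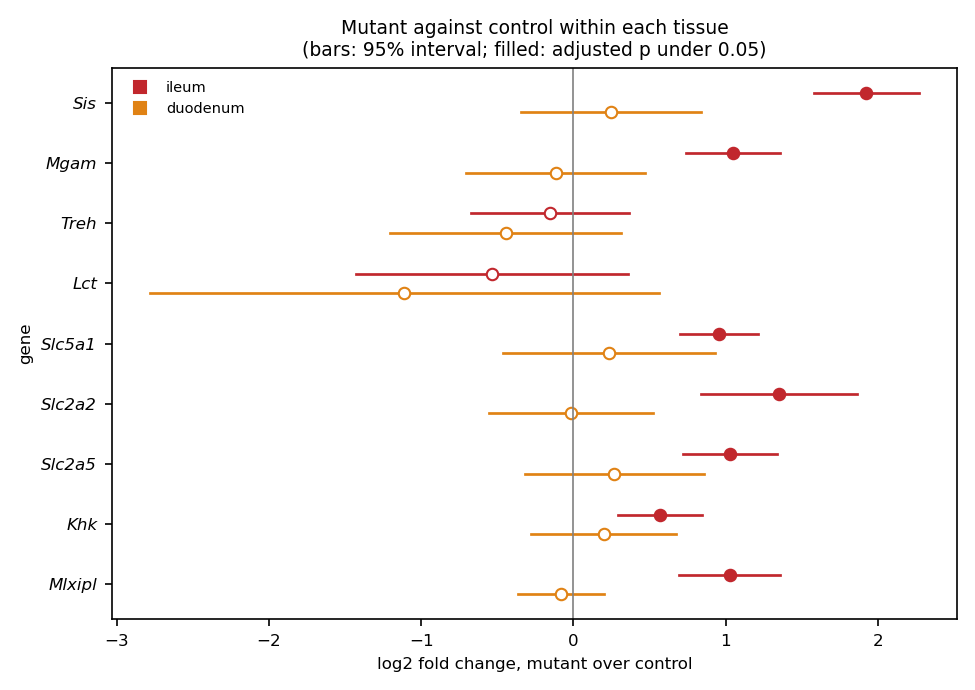
Log2 fold change of mutant over control (horizontal axis) for each gene in ileum and duodenum, with 95% intervals from the edgeR fits; filled points passed the test. Ileal values lie between 0.57 and 1.92 for the 7 genes called, and duodenal values lie between -1.11 and 0.27.

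Whether the genotype effect differed between tissues was tested as an interaction over all 16 libraries. Sis was called, with an ileal effect larger by 1.69 on the log2 scale (SE 0.28, 95% interval 1.102 to 2.28, adjusted p = 0.0262, edgeR). Among 15882 genes tested, 6 were called higher in this contrast, or 0.0378%. The effect on Mlxipl was larger in the ileum by 1.12 (SE 0.21, adjusted p = 0.0609), that on Slc2a2 by 1.38 (SE 0.33, adjusted p = 0.288) and that on Mgam by 1.18 (SE 0.25, adjusted p = 0.189, all edgeR). All 9 differences were above 0, against 51.4% of all genes tested, with a median of 0.77, against 0.0081 over all genes tested. An unadjusted p under 0.05 was found for 6 of the 9 and for 700 of the 15882 genes tested (edgeR). With the animal as a replicate block, the call passed to Mlxipl (1.13, adjusted p = 0.0374, edgeR) and Sis missed it (1.71, adjusted p = 0.0835, edgeR). Sis also missed it in 6 of the 8 fits that left out 1 library pair (without NF17, NF29, NF32, NF152, NFVCT27 or NFVCT38), with values of 1.501 to 1.79 and an adjusted p of up to 0.296 (edgeR). None of the other 8 genes passed this test with all libraries and no block.

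In control mice, all 9 genes had a lower mean in the ileum than in the duodenum, and 8 were called lower, against 18.7% of the 14976 genes tested. The steepest were Slc2a2 (log2 fold change -2.56, adjusted p = 2.3e-06), Slc2a5 (-2.46, adjusted p = 1.3e-06), Khk (-1.92, adjusted p = 2.4e-07) and Treh (-1.82, adjusted p = 0.000195, all edgeR). Mlxipl (-1.47), Lct (-1.45), Slc5a1 (-1.24) and Mgam (-0.87) followed. Lct stood at -0.96 without NF29 (adjusted p = 0.00485, edgeR) and lost its call without NF152 (adjusted p = 0.079, edgeR). Sis was the flattest, at -0.50 with an adjusted p of 0.0696 (edgeR), although its 4 ileal values lay below its 4 duodenal ones. Slc2a2 for example averaged 201 ± 57 CPM in control ileum and 1168 ± 199 CPM in control duodenum (SD, n = 4 each).

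In mutant mice, Sis was higher in the ileum than in the duodenum, at 19058 ± 2182 CPM in ileum and 8421 ± 1645 CPM in duodenum (SD, n = 4 each). Its log2 fold change was 1.16, with an SE of 0.22 (adjusted p = 0.00211, edgeR), and without NFVCT38 it missed the threshold at 1.06 (adjusted p = 0.0567, edgeR). It was 1 of 9 genes called higher, against 15.2% of the 14950 genes tested. Of the 9, 4 were called lower in mutant ileum, against 17.1% of all genes: Slc2a5 (-1.72), Khk (-1.56), Treh (-1.54) and Slc2a2 (-1.20). Treh missed the threshold without NFVCT27 (adjusted p = 0.0549) or NFVCT153 (adjusted p = 0.0739, both edgeR). Mgam (0.28, adjusted p = 0.323), Lct (-0.88, adjusted p = 0.417), Slc5a1 (-0.53, adjusted p = 0.142) and Mlxipl (-0.37, adjusted p = 0.094, all edgeR) were not called. Lct stood at -0.071 without NFVCT153 and at -1.39 without NFVCT38, and at -0.42 with the animal as a replicate block (adjusted p = 0.949, 0.292 and 0.635, edgeR). Slc5a1 passed without NFVCT190 (-0.75, adjusted p = 0.00654, edgeR), and Mlxipl passed without NFVCT153 (-0.52, adjusted p = 0.0434, edgeR). These tissue comparisons use the same libraries as the genotype comparisons, so they restate the same values from another side.

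**Figure D4:**
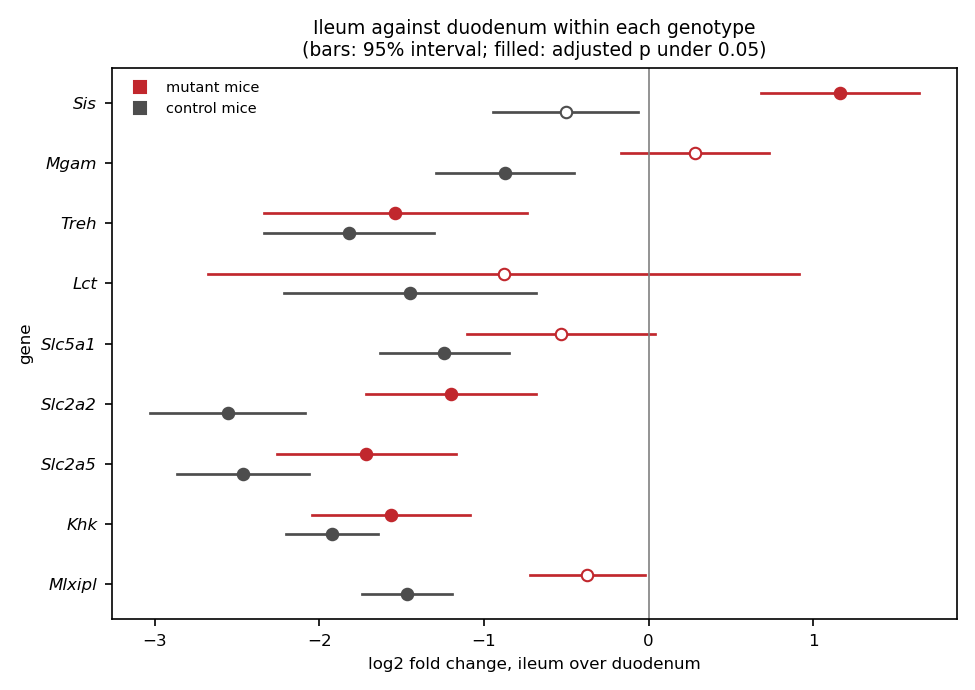
Log2 fold change of ileum over duodenum (horizontal axis) for each gene within mutants and within controls, with 95% intervals from the edgeR fits; filled points passed the test. All 9 control values lie below 0, from -2.56 to -0.50, and Sis lies at 1.16 in mutants.

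Among ileal controls, NF29 had the lowest value for all 9 genes, while among duodenal controls the same animal had the highest value for 8 of 9. Its 12 proximal identity genes summed to 367 CPM in the ileum, against 570.0 to 713 CPM in the other ileal controls, and to 5527 CPM in the duodenum, against 3208 to 4054 CPM in the other duodenal controls. The part of these levels in the values of NF29 was not tested. Without NF29, 6 of the 9 genes were called in the ileum (Khk had an adjusted p of 0.0574, edgeR), and the log2 fold change of Sis was 1.81.

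Per kilobase of exon (GENCODE M21, GRCm38), which allows genes to be compared, Sis stood first in mutant ileum at 3201 ± 366 CPM per kb, ahead of Mgam at 1286 ± 181 and Slc5a1 at 1010 ± 93 CPM per kb (SD, n = 4). In control ileum the same order held at 841 ± 170, 617 ± 77 and 518 ± 47 CPM per kb (SD, n = 4), but neighbouring genes overlapped there, whereas Sis stood clear of Mgam in mutants. In the duodenum Slc5a1, Sis and Mgam shared the top, at 1448 ± 503, 1415 ± 276 and 1041 ± 116 CPM per kb in mutants and 1213 ± 207, 1179 ± 133 and 1119 ± 114 CPM per kb in controls (SD, n = 4 each), with overlap between neighbours except between Sis and Mgam in mutants. Slc2a2 had rank 4 in mutant ileum at 92.3 CPM per kb and rank 7 in control ileum at 36.0 CPM per kb. Lct had rank 6 in mutant ileum at 58.6 CPM per kb and rank 4 in control ileum at 84.6 CPM per kb, overlapping its neighbours below in both. Mlxipl was lowest in all 4 groups, at 11.2 CPM per kb in mutant ileum and 5.48 CPM per kb in control ileum.

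Ratios between genes within a library need no scaling between libraries. There were 39.7 to 88.6 Sis reads per Lct read in mutant ileum, against 7.68 to 13.0 in control ileum. The groups did not overlap, and the mean log2 ratio was higher by 2.5003 in mutants (two-sided exact permutation test, p = 0.0286, the smallest that 4 against 4 allows). In the duodenum this ratio was 6.62 to 47.1 in mutants and 3.67 to 8.32 in controls, a difference of 1.82 with an overlap of 1 mutant, NFVCT153, with the control range (exact permutation p = 0.0571). Sis reads per Mgam read were 1.60 to 1.91 in mutant ileum and 0.786 to 1.27 in control ileum, without overlap (log2 difference 0.89, exact permutation p = 0.0286), and 0.827 to 1.05 in mutant duodenum and 0.655 to 0.885 in control duodenum (log2 difference 0.36, exact permutation p = 0.0571). The Slc2a5 to Slc5a1 ratio hardly varied in the duodenum, at 0.0548 to 0.0594 in mutants and 0.0533 to 0.0577 in controls. In the ileum it was 0.0238 to 0.0271 in mutants and 0.0190 to 0.0272 in controls (log2 difference 0.10, exact permutation p = 0.543). The Slc2a5 to Slc2a2 ratio overlapped between genotypes in both tissues, with log2 differences of -0.32 in the ileum (exact permutation p = 0.2) and 0.25 in the duodenum (exact permutation p = 0.257). Over the 8 tests of 4 ratios in both tissues, the adjusted p of the Sis ratios was 0.114, so none passed the correction.

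**Figure D5:**
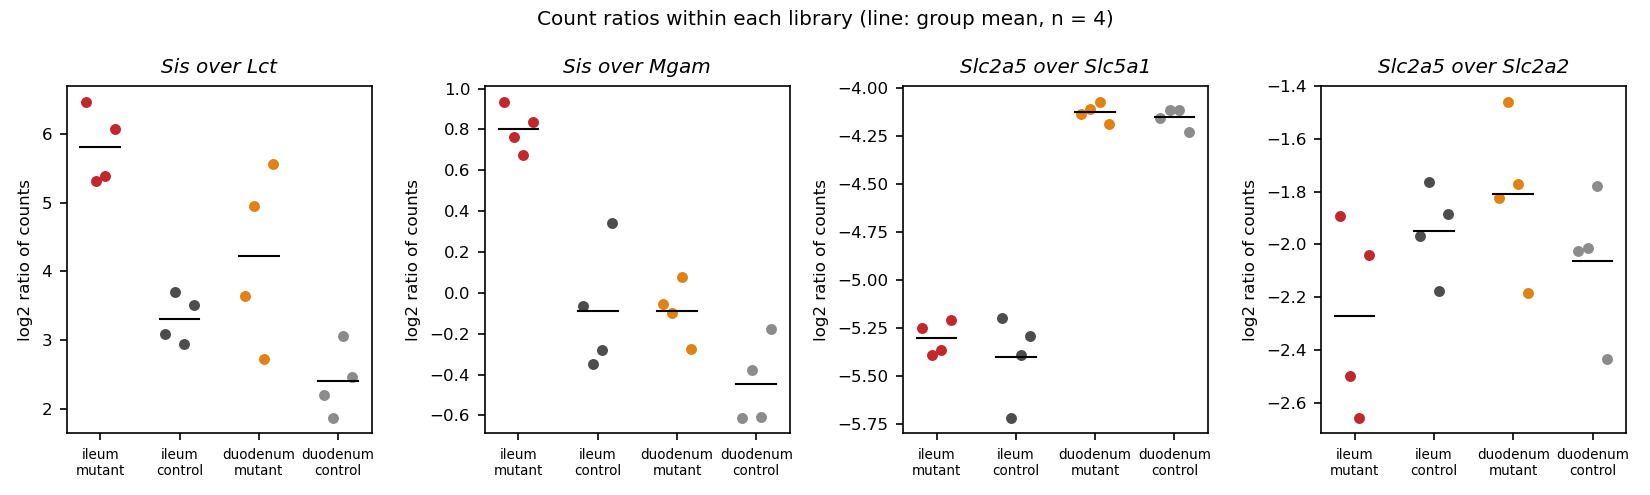
Log2 ratio of the counts of 2 genes within each library (vertical axes), by tissue and genotype; points are libraries and lines are group means of 4. For Sis over Lct and Sis over Mgam, ileal mutants lie above all ileal controls; for Slc2a5 over Slc5a1, the tissues differ and the genotypes overlap.

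The genes whose profile over the 16 libraries lay nearest to those of the 9 were found by the root mean square (RMS) difference of centred log2 CPM among 8996 genes of at least 10 CPM. Khk lay near Slc35c2 and Gpd1, the glycerol-3-phosphate dehydrogenase gene, both at 0.20, Mgam near Bhlhe40 at 0.25 and Adgra3 at 0.26, and Mlxipl near Abcb9 at 0.25 and Ppargc1a at 0.27. Treh lay near Ehhadh at 0.25 and H2-Q2 at 0.28, Slc2a2 near Dao at 0.27 and Slc16a6 at 0.29, and Slc2a5 near Slc16a6 at 0.34 and Tmem37 at 0.36. The nearest to Sis, Prkag2 and Sh2d7, were at 0.41, and the nearest to Lct, Slc5a4a and Bst1, at 0.42 and 0.50. By this measure these 2 disaccharidase genes had the least close neighbours. The measure is not scaled to a gene's own SD of log2 CPM, which was 0.74 for Sis, 1.09 for Lct and 0.43 for Mgam. The 16 libraries share animals and tissues, and the likeness is a description.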

How the data were processed

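Total RNA from ileum and duodenum of 8 mice was sequenced after ribosomal RNA removal with a stranded kit, per the labels' protocols. The authors deposited raw read counts per gene for 55359 Ensembl genes, with no normalization. The submitters' processing notes name the build mm39, the aligners STAR 2.5.3a and Bowtie2 2.2.8, the counter HTSeq 0.6.1p1, and cutadapt 1.10 and bcl2fastq 2.20.0.422; the strand setting of the counting is not given in the sources used here. Symbols came from a name table for 52083 IDs, which hold 98.3% of counts.

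Each comparison was fitted on all genes of its libraries with edgeR 4.0.16 (R 4.3.3): filterByExpr, TMM scaling, robust quasi-likelihood F test, Benjamini-Hochberg adjustment over all genes tested, called at an adjusted p under 0.05. All 9 genes passed the filter in every comparison. The SE is the log2 fold change over the square root of F. CPM are TMM-scaled over all 16 libraries. List scores are means of log2 CPM (prior count 0.5). DESeq2 1.42.0, limma 3.58.1 (voom), other scalings, filters and covariates, and fits without 1 library were alternatives. The fits were tested on simulated data. No replicate libraries were duplicates: the lowest chi-square per degree of freedom between replicates was 11.5. Ileum and duodenum of an animal are paired by the labels; deviations from the group means correlated at 0.12 to 0.34 within animals and at most at 0.086 between them.

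The 9 genes and all lists were chosen with earlier results of these data known. Named are all 9; of each list, genes of smallest p (up to 4 per tissue); and for each of the 9 the 2 genes of most similar profile. Some genes that this rule names are not reported here.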

Additional observations from a re-analysis of the deposited data

Results flagged for a closer look

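The effect of the genotype on Sis differed between tissues by the interaction test: the log2 fold change of mutant over control was larger in the ileum than in the duodenum by 1.69 (adjusted p = 0.0262, edgeR). With the animal, which gave both tissues, as a replicate block, the difference was 1.71 and missed the threshold (adjusted p = 0.0835, edgeR). The ileal mutants averaged 19058 ± 2182 CPM and the ileal controls 5008 ± 1012 CPM, and the duodenal mutants averaged 8421 ± 1645 CPM and the duodenal controls 7016 ± 790 CPM (SD, n = 4 each). Over the alternatives, the difference stayed between 1.501 and 1.85 on the log2 scale, and it passed the threshold in 7 of 15, with an adjusted p of up to 0.296 (edgeR, without NFVCT38). In 36 groups of 4 libraries (9 genes in 4 groups), 0 values stood apart by Dixon's criterion. With 4 values per group this criterion flags only a wide gap, so it does not show that no library stood apart. NFVCT190, the lowest duodenal mutant for 7 of the 9 genes, was not flagged.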

How the results depend on the processing

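In the ileum the 7 genes kept their direction in all 16 alternatives. Sis passed in 16 of 16, Mgam, Slc5a1, Slc2a5 and Mlxipl in 15, Slc2a2 in 13 and Khk in 8. Of the 9 genes, 1 was called with the smooth muscle score as a covariate, which takes up a measure that does not overlap between the genotypes. Between tissues, 1 gene was called in the main test, 4 by DESeq2's Wald test (Sis, Mgam, Slc2a2 and Mlxipl), 2 by limma-voom (Sis and Mgam), 2 without a filter on low counts (Sis and Mlxipl), 0 without a robust prior, and 0 to 2 when single animals were left out; the cause was not tested. With the animal as a replicate block, 1 was called, Mlxipl in place of Sis; the block changed no other call of the 9 genes, in the control and mutant tissue comparisons included.

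Changes of sign were limited to genes that did not pass. In the duodenum, scaling to epithelial counts gave Slc5a1 -0.0031 and Khk -0.034, leaving out the library of highest acinar share of each genotype gave Slc2a2 0.084, and leaving out single libraries gave Slc2a2 -0.15 to 0.13. In the ileum, Treh ranged from -0.36 to 0.014 over the fits without 1 library, and its difference between tissues from -0.045 to 0.62.

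Sis in control ileum against control duodenum passed in 4 of 11 alternatives, among them DESeq2 (adjusted p = 0.00537) and limma-voom (adjusted p = 0.0276), and Lct lost its call there without NF152 (adjusted p = 0.079, edgeR).

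Counts over all genes moved more. In the duodenum they were 58 in the main test, 310 with DESeq2's Wald test, 169 without a filter, 140 with epithelial scaling, 151 in the fit of all 16 libraries, 31 without the libraries of highest acinar share and 27 to 61 without single libraries. In the ileum they were 490, 875 with DESeq2, 1096 without a filter, 34 with the smooth muscle covariate and 272 to 472 without single libraries. Between tissues they were 7, 38 with DESeq2, 15 without a filter, 14 with epithelial scaling, 16 with the replicate block and 1 to 9 without single animals. In control ileum against control duodenum they were 5372, and 3443 without NF17. In mutant ileum against mutant duodenum they were 4833, 2987 with epithelial scaling and 2818 without NFVCT38.

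Epithelial scaling moved the median of all genes by more than 0.1 in 4 comparisons, to -0.17 in the duodenum, 0.12 in the difference between tissues, -0.24 in the control tissue comparison and -0.13 in the mutant one. The share of calls that were higher was then 10.7% in the duodenum (24.1% in the main test), 41.8% in the ileum (53.9%), 18.9% in the control tissue comparison (47.8%) and 33.4% in the mutant one (47.1%).

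Limits: 4 animals per group gave duodenal intervals for Lct too wide to exclude a large change, p-values rest on animals of 1 sex and 1 time point, and the lowest group mean among the 9 genes was 22.0 CPM (Mlxipl in control ileum).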
